A study of Sus scrofa with 4 samples.

Results

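The let-7 family of microRNAs was followed in 4 small RNA libraries of primary pig vascular stem cells. Its members here are let-7a, let-7c, let-7e, let-7f, let-7g, let-7i and miR-98, taken as every pig hairpin entry whose name, without a copy number, is one of these. All 7 were found in every library, with 1 hairpin entry each, among 189 miRNAs that had a read. The series compared the miRNAs of adipogenesis in 2 primary cell types, with 1 library per group (n = 1). SVSC MDI is the culture from subcutaneous fat after adipogenic induction, and SVSC is the same kind of culture before it. IVSC MDI and IVSC are the induced and undifferentiated cultures from the longissimus dorsi, a back muscle. All were at passage 1 and in 20% serum, and SVSC were plated less densely than IVSC. MDI stands for the inducers of the medium: the phosphodiesterase inhibitor IBMX at 0.5 mM, the glucocorticoid dexamethasone at 0.25 µM, and 5 mg/l of insulin. The first pair was left out from day 3, growth medium came back at day 6, and cells went on for 3 or 4 further days. The labels do not tell which length applies to which culture, nor whether any cultures share an animal. All 4 libraries carry the same cell type label, that of a vascular stem cell derived from adipose tissue, the muscle cultures included.

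let-7 miRNAs are loaded into Argonaute proteins and guide them to messenger RNAs by a seed near the 5′ end, which lowers translation and stability of these targets. Members of the family share that seed and differ elsewhere, so their predicted targets overlap widely. Known targets include RAS genes, the chromatin protein HMGA2, LIN28 and parts of insulin and IGF signalling, and LIN28 proteins in turn block the processing of let-7 precursors. The family is low in early embryos and rises as cells differentiate. In mouse 3T3-L1 preadipocytes, let-7 has been reported to repress HMGA2 and to slow the formation of adipocytes. These statements are background and were not measured here.

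The libraries held 2573249 miRNA reads in SVSC MDI, 17937121 in SVSC, 14810112 in IVSC MDI and 13252168 in IVSC, so SVSC MDI was the shallowest. Levels are given as CPM, the reads on a hairpin scaled to the miRNA reads of the library. The cell type label was read against marker miRNAs. All 5 perivascular and mesenchymal markers (miR-143, miR-145, miR-199a, miR-199b and miR-214) had reads and together took 40.9% of miRNA reads in SVSC MDI, 26.2% in SVSC, 40.2% in IVSC MDI and 35.9% in IVSC. Nearly all of this was miR-143 read outside its mature sequence: on mature reads alone the 5 took 1.89% of the total in SVSC MDI, 0.389% in SVSC, 1.33% in IVSC MDI and 0.564% in IVSC. All 5 skeletal muscle markers had reads too, with a summed level of 888, 1853, 1137 and 6275 CPM in the same order. They did not go together: miR-206 had 1.55 CPM in SVSC MDI, 2.79 in SVSC, 140 in IVSC MDI and 4874 in IVSC, while miR-1 had 661, 1818, 882 and 1242 CPM and was highest in SVSC. Endothelial miR-126 stayed between 52.6 and 134 CPM. The summed level of the blood cell list stayed between 7.97 and 34.9 CPM, with reads for 2 of its 4 miRNAs. Neuronal, liver and epithelial lists each summed to at most 77.3 CPM in any library, with 1 of 2 neuronal (miR-9) and 1 of 5 epithelial miRNAs (miR-205) counted. miR-223, miR-150, miR-124, miR-200a, miR-200b, miR-200c and miR-141 were not found by name among the miRNAs with a read. An entry named miR-124a was there, with 1 read in SVSC MDI and 0 in SVSC, IVSC MDI and IVSC, and is not part of the neuronal sum. The miRNAs other than miR-124 may lack an entry, so low sums of these lists do not show that such cells were absent. The muscle and mesenchymal levels thus differ between the libraries compared, and their part in the let-7 results was not tested.

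The family took 7.40% of miRNA reads in SVSC MDI (190398 reads), 10.6% in SVSC (1898947 reads), 6.17% in IVSC MDI (913686 reads) and 5.53% in IVSC (732566 reads). The exact 95% counting intervals of these shares were 7.37 to 7.43%, 10.57 to 10.60%, 6.16 to 6.18% and 5.52 to 5.54%. Intervals here cover counting error only, since reads amplified by PCR without molecular identifiers are not independent molecules. None of the intervals overlap, and SVSC had the highest share. Without let-7a the share was 5.31% in SVSC MDI, 6.00% in SVSC, 4.66% in IVSC MDI and 3.91% in IVSC, which leaves the libraries in the same order and closer together.

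let-7f and let-7a were far above the other members in every library. let-7f had 38247 CPM in SVSC MDI, 47915 in SVSC, 35380 in IVSC MDI and 30511 in IVSC, and ranked 5, 4, 4 and 5 among the miRNAs of those libraries. let-7a had 20890 CPM in SVSC MDI, 45846 in SVSC, 15045 in IVSC MDI and 16198 in IVSC. The SVSC library stood alone for let-7a, above the SVSC MDI library by 2.19-fold and farther above the rest, while let-7f varied by 1.57-fold between its highest and lowest library. Both have the same seed and are the members most often abundant in mammalian somatic tissue.

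A middle group followed. let-7g, processed in human from an intron of WDR82, had 4342 CPM in SVSC MDI, 5979 in SVSC, 5671 in IVSC MDI and 3942 in IVSC. let-7c had 4236 CPM in SVSC MDI, 2797 in SVSC, 1803 in IVSC MDI and 1723 in IVSC, so both subcutaneous libraries lay above both muscle libraries. let-7e showed the widest spread of the family, 4.08-fold, with 3911 CPM in SVSC MDI, 1489 in SVSC, 1522 in IVSC MDI and 959 in IVSC. SVSC MDI was alone at the high end for let-7e.

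let-7i and miR-98 varied least when all hairpin reads were counted. let-7i had 1912 CPM in SVSC MDI, 1422 in SVSC, 1873 in IVSC MDI and 1629 in IVSC, a 1.35-fold range. miR-98, the member with its own name, which in human lies with a copy of let-7f in an intron of HUWE1, was lowest everywhere, at 454, 418, 399 and 318 CPM in the same order. With 1 library per group there is no spread between replicates, so neighbours in these orders cannot be said to differ beyond it. The order of let-7f, let-7a and let-7g at the top, and of miR-98 at the bottom, was the same in all 4 libraries. let-7c stood above let-7i in SVSC MDI, SVSC and IVSC, but in IVSC MDI let-7i had 1873 CPM against 1803 for let-7c. let-7e stood above let-7i in SVSC MDI and SVSC and below it in IVSC MDI and IVSC. These orders hold for all hairpin reads. On mature reads alone let-7c and let-7e were above let-7i in every library. In IVSC MDI these were 26019 and 22122 against 9912 mature reads, and in IVSC 22249 and 12204 against 7311.

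**Figure D1:**
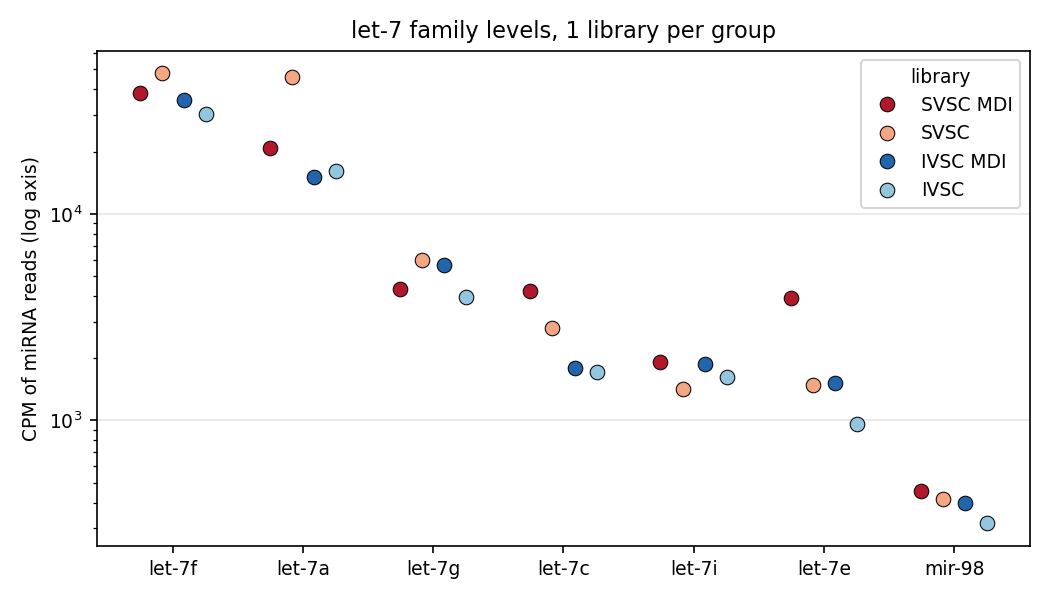
Level of each let-7 member in CPM of miRNA reads (log axis), 1 point per library, with members ordered by their overall level. let-7a in SVSC (45846 CPM) and let-7e in SVSC MDI (3911 CPM) stand apart from the other 3 libraries of their member.

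The make-up of the family can be compared without any scaling between libraries. let-7f and let-7a together made 79.9% of family reads in SVSC MDI, 88.6% in SVSC, 81.7% in IVSC MDI and 84.5% in IVSC. let-7f alone made 51.7%, 45.3%, 57.3% and 55.2% in the same order, and let-7a made 28.2%, 43.3%, 24.4% and 29.3%. SVSC was thus the library in which both were nearly equal, with 0.957 reads of let-7a per read of let-7f, against 0.546 in SVSC MDI, 0.425 in IVSC MDI and 0.531 in IVSC. Counted on reads that match the mature sequence exactly, the same ratio was 0.537 in SVSC MDI, 0.971 in SVSC, 0.427 in IVSC MDI and 0.541 in IVSC.

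The smaller members took the remainder. let-7g made 5.87% of family reads in SVSC MDI, 5.65% in SVSC, 9.19% in IVSC MDI and 7.13% in IVSC. let-7c made 5.72% in SVSC MDI and between 2.64% and 3.12% in the others. let-7e made 5.29% in SVSC MDI, 1.41% in SVSC, 2.47% in IVSC MDI and 1.73% in IVSC. let-7i ranged from 1.34% (SVSC) to 3.04% (IVSC MDI), and miR-98 from 0.395% (SVSC) to 0.647% (IVSC MDI). No counting interval of these shares was wider than 0.449 percentage points.

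Set against each other as whole profiles, SVSC MDI and SVSC placed 15.1% of family reads on different members, and IVSC MDI and IVSC placed 5.11% differently. SVSC and IVSC differed in 14.0% of family reads, and SVSC MDI and IVSC MDI in 9.47%. SVSC was the library farthest from each of the others, at 14.0% or more, and the other libraries were within 9.47% of one another.

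**Figure D2:**
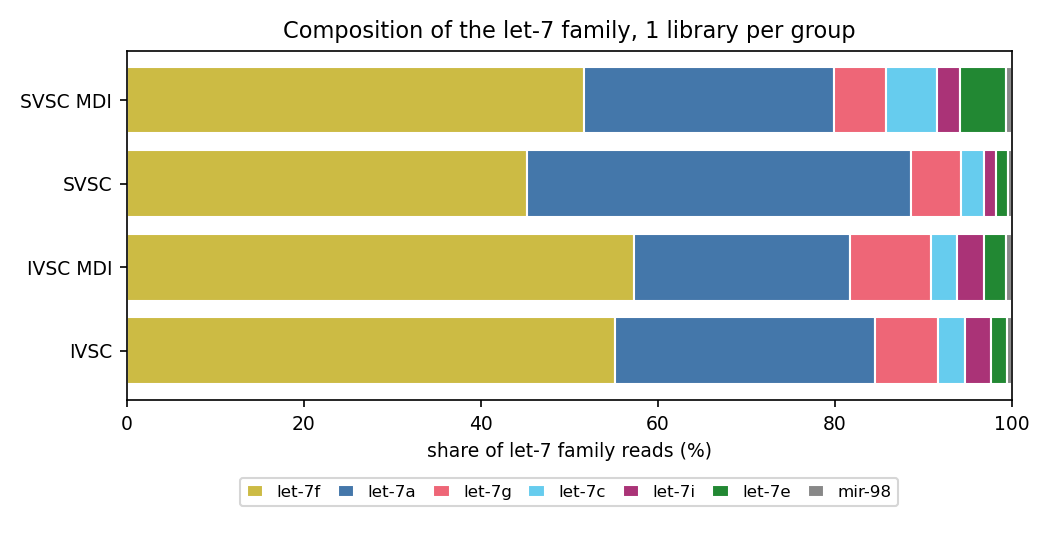
Share of each member in the let-7 family reads (percent), 1 bar per library. let-7a takes 43.3% of the SVSC bar and 24.4 to 29.3% of the others, and let-7c and let-7e are widest in SVSC MDI (5.72% and 5.29%).

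Reads shared between members were looked for directly, since the mature sequences are close to one another. The files count mature reads and, apart from them, mature reads that match only 1 entry. For each of the 7 members these counts were equal in every library, so 0 mature reads were recorded as shared with another entry. The labels and headers do not state how many mismatches the counting allowed, so a read of a member with a sequencing error at a base that tells members apart could still be counted on its relative. In the pig annotation of assembly Sscrofa11.1, let-7a and let-7f each have another gene copy (MIRLET7A-2 and MIRLET7F-2, beside MIRLET7D), and these copies have no hairpin entry among those analysed here. A mature read from either copy would fall on the single let-7a or let-7f entry. let-7b and let-7d had no hairpin entry among those analysed here.

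In the subcutaneous culture, the question was which members differed after induction. let-7a was lower with MDI, at 20890 CPM in SVSC MDI against 45846 CPM in SVSC, a 2.19-fold difference (2.18 to 2.21). let-7e was higher, at 3911 CPM in SVSC MDI against 1489 CPM in SVSC, a ratio of 2.63 (2.57 to 2.69). A member counts as higher or lower when its ratio is at least 2-fold and the exact 95% counting interval, printed in parentheses, excludes 1. By that rule 1 of 7 members was higher and 1 lower, beside 34.2% of 146 miRNAs higher and 21.9% lower in the same comparison. That split of all miRNAs was 50 higher and 32 lower, and under 4 of the 6 scalings it ran from 33 higher and 44 lower (all reads) to 40 and 42 (miR-21 left out). In whole cultures like these, fewer cells of a type and less of a miRNA per cell cannot be told apart.

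The other members stayed short of 2-fold, except that let-7c passed it (log2 1.02) on unique mature reads scaled to their own total. let-7c had a ratio of 1.51 (1.48 to 1.55) and let-7i of 1.35 (1.30 to 1.39). miR-98 had a ratio of 1.08 (1.02 to 1.15), let-7f of 0.798 (0.793 to 0.804) and let-7g of 0.726 (0.712 to 0.740). The family sum had a ratio of 0.699 (0.696 to 0.702), and without let-7a it had a ratio of 0.885 (0.880 to 0.890). The median log2 ratio was 0.12 over the members and 0.41 over all 146 miRNAs compared. 4 of 7 members had a ratio above 1, against 61.6% of all miRNAs.

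The SVSC MDI over SVSC ratios depend on the scaling. Log2 ratios of all miRNAs move by −0.50 with TMM, −0.43 with DESeq2 size factors, −0.49 with all reads of the library and −0.40 with miR-21 left out of the total. let-7a was lower by the same rule under each of 6 scalings (log2 −1.64 to −1.13), but short of 2-fold when mature reads were scaled to mature reads (−0.83) and when unique mature reads were scaled to their own total (−0.71). let-7e was positive in all 6 (0.89 to 1.39) and past 2-fold in 2 of 6. With reads scaled to their own totals, let-7e was past 2-fold on mature (1.69), unique mature (1.80) and exact mature reads (1.03). The family sum was negative in all 6 and lower by at least 2-fold in 2 (log2 −1.02 to −0.52). Its value was −0.22 on mature reads, −0.11 on unique mature reads and −1.07 on exact mature reads, each scaled to their own total. let-7f and let-7g were negative in all 6, let-7c was positive in all 6, and let-7i and miR-98 changed sign, being positive in 4 and 2 of 6.

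Ratios taken within the family are free of scaling. Relative to the rest of the family, let-7a was 0.515 times as frequent in SVSC MDI as in SVSC (0.510 to 0.520). let-7e was 3.91 times as frequent (3.82 to 4.01), let-7c 2.24 times (2.19 to 2.29), let-7i 1.95 times (1.89 to 2.01) and miR-98 1.55 times (1.46 to 1.65). let-7f was 1.29 times and let-7g 1.04 times as frequent. All 7 intervals exclude 1. Since let-7a itself makes up much of the rest of the family for every other member, the values above 1 are in part the counterpart of its own. These ratios count all hairpin reads, and most of those of let-7i lay off the mature sequence. let-7i made 2.58% of family hairpin reads in SVSC MDI against 1.34% in SVSC. On mature reads alone its shares were closer, 0.725% in SVSC MDI against 0.516% in SVSC.

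In the muscle culture, no member was past 2-fold after induction, beside 16.4% of 152 miRNAs higher and 23.7% lower (25 and 36, or 32 and 21 when scaled to all reads). let-7e had the highest ratio, 1.59 (1.55 to 1.62), with 1522 CPM in IVSC MDI against 959 CPM in IVSC. let-7g followed with 1.44 (1.42 to 1.45), at 5671 CPM in IVSC MDI against 3942 CPM in IVSC. miR-98 had a ratio of 1.25 (1.21 to 1.31), let-7f of 1.16 (1.15 to 1.16), let-7i of 1.15 (1.13 to 1.17) and let-7c of 1.05 (1.03 to 1.07). let-7a, at 0.929 (0.923 to 0.934), was the member below 1, and it was above 1 (log2 0.11) when scaled to all reads. The family sum had a ratio of 1.12 (1.11 to 1.12). The median log2 ratio was 0.21 over the members and −0.04 over all 152 miRNAs.

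Within the family, let-7a was 0.778 times as frequent relative to the rest in IVSC MDI as in IVSC (0.773 to 0.784). let-7e was 1.43 times as frequent (1.40 to 1.46) and let-7g 1.32 times (1.30 to 1.33). let-7c, at 0.936 (0.919 to 0.953), was the other member below 1. In both cultures let-7a therefore made a smaller share of the family with MDI and let-7e a larger one, in 1 library each.

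The ratios with MDI were set against each other between cultures, as the log2 ratio in SVSC minus that in IVSC. let-7a differed by −1.03 (95% counting interval −1.04 to −1.01) and let-7g by −0.99 (−1.02 to −0.95). let-7f differed by −0.54 (−0.55 to −0.53) and miR-98 by −0.21 (−0.32 to −0.11). let-7e differed by 0.73 (0.68 to 0.77), let-7c by 0.53 (0.49 to 0.57) and let-7i by 0.23 (0.18 to 0.28). The family sum differed by −0.68 (−0.68 to −0.67). A change of scaling adds the same amount to every member here, so the spread between let-7a and let-7e, and not the zero point, is what the counts fix. With 1 library per group no test of these differences against replicate spread was possible.

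Between the undifferentiated cultures, let-7a was higher in SVSC, at 45846 CPM against 16198 CPM in IVSC, a ratio of 2.83 (2.82 to 2.84). It was the 1 member of 7 past 2-fold, beside 7.43% of 148 miRNAs higher and 20.9% lower (11 and 31, but 24 and 28 with TMM, 24 and 30 with miR-21 left out, and 28 and 24 with DESeq2 size factors). let-7c had a ratio of 1.62 (1.60 to 1.65), let-7f of 1.57 (1.56 to 1.58), let-7e of 1.55 (1.52 to 1.59), let-7g of 1.52 (1.50 to 1.53) and miR-98 of 1.32 (1.27 to 1.37). let-7i had a ratio of 0.873 (0.857 to 0.889), and its sign turned under 3 of 6 scalings. The family sum had a ratio of 1.92 (1.91 to 1.92). The median log2 ratio was 0.64 over the members and −0.25 over all 148 miRNAs, and 6 of 7 members had a ratio above 1 against 40.5% of all miRNAs.

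let-7a was past 2-fold in SVSC over IVSC under all 6 scalings (log2 1.50 to 1.87), and let-7c passed it under 3 of 6 (log2 0.70 to 1.06). The family sum was past 2-fold under 5 of 6 (log2 0.94 to 1.30), all but the scaling to miRNA reads used here. Over all 12 settings, some of which also changed the reads counted, it was past 2-fold in 7 (log2 0.53 to 1.30). Relative to the rest of the family, let-7a was 1.84 times as frequent in SVSC as in IVSC (1.83 to 1.85). The other members were between 0.448 times (let-7i, 0.440 to 0.457) and 0.843 times (let-7c, 0.830 to 0.857) as frequent. The ratios of SVSC MDI over SVSC and of SVSC over IVSC both use the SVSC library, so the high let-7a count of that library enters each of them.

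Between the induced cultures, let-7c and let-7e were higher in SVSC MDI than in IVSC MDI. let-7e had 3911 CPM in SVSC MDI against 1522 CPM in IVSC MDI, a ratio of 2.57 (2.51 to 2.63). let-7c had 4236 CPM in SVSC MDI against 1803 CPM in IVSC MDI, a ratio of 2.35 (2.30 to 2.40). These were 2 of 7 members, beside 17.7% of 147 miRNAs higher and 10.2% lower (26 and 15, but 21 and 20 with TMM, 19 and 25 with miR-21 left out, and 7 and 29 with all reads). Both were short of 2-fold (log2 0.84 and 0.71) when scaled to all reads, and past it under the other 5 scalings.

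The rest lay closer to 1. let-7a had a ratio of 1.39 (1.38 to 1.40), miR-98 of 1.14 (1.07 to 1.21), let-7f of 1.08 (1.07 to 1.09) and let-7i of 1.02 (0.990 to 1.05), and let-7g was at 0.766 (0.751 to 0.781). let-7a, let-7f, let-7i and miR-98 changed sign under at least 1 of 6 scalings, and let-7g was negative under all 6. The interval of let-7i includes 1, so no difference was detectable for it on hairpin reads scaled to miRNA reads. Scaled to all reads its log2 ratio was −0.49. On mature reads scaled to mature reads it had 906 CPM in SVSC MDI against 1142 CPM in IVSC MDI. The family sum had a ratio of 1.20 (1.19 to 1.21) and turned negative (log2 −0.26) when scaled to all reads. The median log2 ratio was 0.18 over the members and 0.13 over all 147 miRNAs. Relative to the rest of the family, let-7e was 2.21 times (2.15 to 2.26) and let-7c 2.02 times (1.97 to 2.06) as frequent in SVSC MDI as in IVSC MDI, let-7g was 0.616 times as frequent (0.603 to 0.628), and miR-98 was indistinguishable from 1 (0.947, 0.889 to 1.01).

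**Figure D3:**
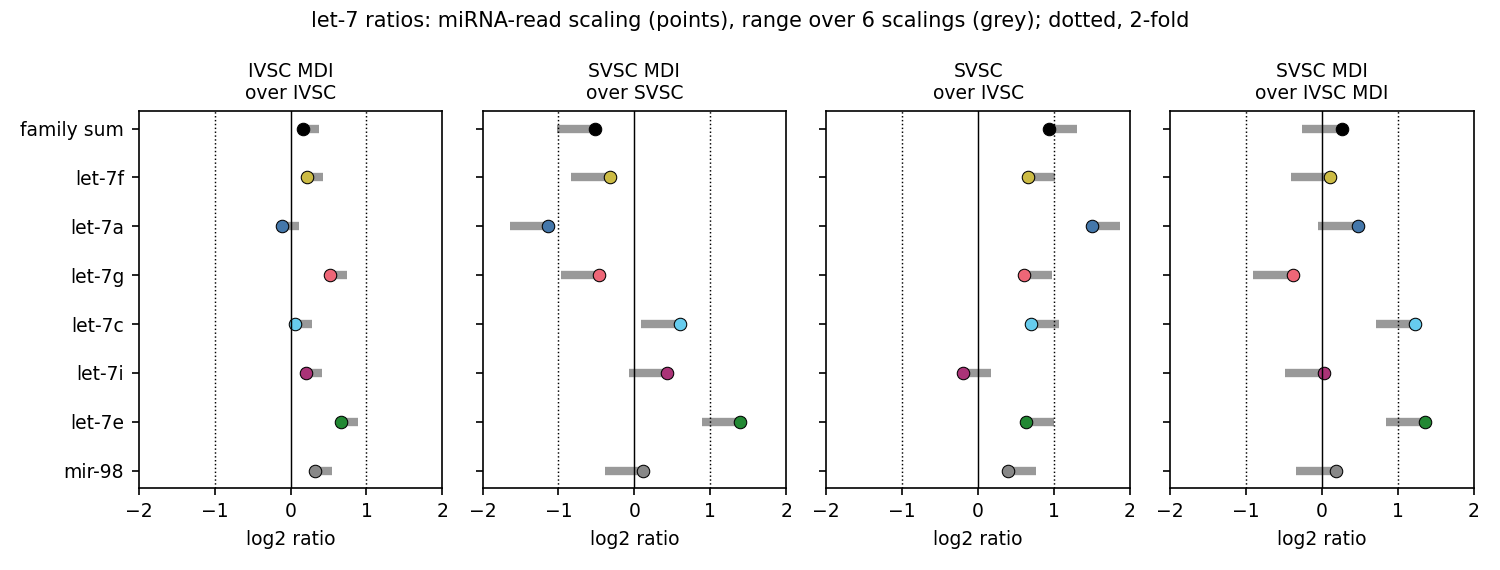
Log2 ratio of each member and of the family sum in the 4 comparisons. Points are scaled to miRNA reads, grey bars give the range over 6 scalings and dotted lines mark 2-fold; let-7a lies beyond 2-fold in SVSC MDI over SVSC and in SVSC over IVSC for the whole of its bar.

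Effects shared by both cultures, or by both states, were tested in 1 additive fit of all 4 libraries with edgeR's quasi-likelihood test over 179 miRNAs. No member passed for MDI at an adjusted p of 0.05, beside 10.6% of all miRNAs. let-7e had a log2 effect of 0.86 (SE 0.55, edgeR adjusted p = 0.350), with a ratio above 1 in both cultures. let-7a had a log2 effect of −0.79 (SE 0.54, edgeR adjusted p = 0.382), with a ratio below 1 in both, though above 1 in IVSC when scaled to all reads. The other 5 members lay between −0.22 (let-7f) and 0.16 (let-7c). At an unadjusted p under 0.05 the count was 0 of 7 with edgeR, beside 47 of all 179 miRNAs. With DESeq2 it was 0 of 7, beside 55 of 179, and DESeq2 also called 0 members after adjustment.

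For origin, SVSC over IVSC across both states, again no member passed, beside 2.79% of all miRNAs. let-7e had a log2 effect of 1.16 (SE 0.55, edgeR adjusted p = 0.318), let-7a of 1.15 (SE 0.55, edgeR adjusted p = 0.318) and let-7c of 1.13 (SE 0.55, edgeR adjusted p = 0.331), each with a ratio above 1 in both pairs of libraries, except let-7a in SVSC MDI over IVSC MDI when scaled to all reads. These 3 members had an unadjusted p under 0.05 with edgeR, beside 24 of all 179 miRNAs. With DESeq2 3 members did, beside 32 of 179, and neither tool called any member after adjustment. The count of members was 0 in edgeR with library size alone (21 of 179 miRNAs) and 1 on mature reads (19 of 158). It was 2 with DESeq2 size factors (24 of 179) or with summed copies (25 of 179). let-7f had 0.54, miR-98 0.45, let-7g 0.27 and let-7i 0.08. The fit has 1 residual degree of freedom and takes its spread from all miRNAs together.

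Several let-7 genes lie beside genes of the miR-99 and miR-125 families, which are made from the same primary transcripts in mammals. miR-99a, miR-99b and miR-100 share a seed and are known to repress MTOR, and miR-125a and miR-125b are the mammalian relatives of lin-4 of worms. Within 50 kb in Sscrofa11.1, the annotation places MIRLET7A-1 by MIR100 and MIR125B-1, MIRLET7C by MIR99A, and MIRLET7E by MIR99B and MIR125A. MIRLET7F-1 lies by MIR98, MIRLET7G by MIR135-1, and MIRLET7I has no neighbouring miRNA. From which gene copy a mature read came is not known, so the neighbours are a guide to position only.

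Beside let-7a, miR-100 was lower with MDI in the subcutaneous culture, with 1814 CPM in SVSC MDI against 7594 CPM in SVSC, a 4.19-fold difference (4.07 to 4.31). In the muscle culture miR-100 had 2178 CPM in IVSC MDI and 2300 CPM in IVSC, a ratio of 0.947 (0.932 to 0.962) whose sign turned under 2 of 6 scalings. In SVSC over IVSC miR-100 was higher, at 3.30 (3.26 to 3.34). SVSC was therefore the highest library for miR-100 as it was for let-7a. miR-125b did otherwise, with 2668 CPM in SVSC MDI, 1146 in SVSC, 1762 in IVSC MDI and 1074 in IVSC, and a ratio of 2.33 (2.27 to 2.39) for SVSC MDI over SVSC, which held at 2-fold in 2 of 6 scalings.

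Beside let-7e, miR-125a had 600 CPM in SVSC MDI, 124 in SVSC, 399 in IVSC MDI and 166 in IVSC. Its ratio was 4.85 (4.54 to 5.18) for SVSC MDI over SVSC and 2.41 (2.29 to 2.53) for IVSC MDI over IVSC, past 2-fold under all 6 scalings in each. miR-99b, on the other side, had 1944 CPM in SVSC MDI, 1271 in SVSC, 855 in IVSC MDI and 817 in IVSC, with ratios of 1.53 (1.48 to 1.58) and 1.05 (1.02 to 1.07). let-7e lay between its neighbours in both cultures, with ratios of 2.63 and 1.59.

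Beside let-7c, miR-99a had 527 CPM in SVSC MDI, 133 in SVSC, 397 in IVSC MDI and 213 in IVSC. Its ratio was 3.98 (3.72 to 4.25) for SVSC MDI over SVSC, past 2-fold under all 6 scalings, and 1.87 (1.78 to 1.95) for IVSC MDI over IVSC. let-7c, with ratios of 1.51 and 1.05, was above 1 in both and lower than its neighbour. Of the 5 miRNAs of the miR-99 and miR-125 families, 3 were higher and 1 lower in SVSC MDI over SVSC, beside 34.2% of all miRNAs higher and 21.9% lower, and miR-125b was short of 2-fold under 4 of 6 scalings. In IVSC MDI over IVSC 1 was higher, beside 16.4% of all miRNAs higher and 23.7% lower. In the edgeR fit over both cultures none of the 5 passed for MDI, miR-125a coming nearest with a log2 effect of 1.60 (SE 0.61, edgeR adjusted p = 0.0738).

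**Figure D4:**
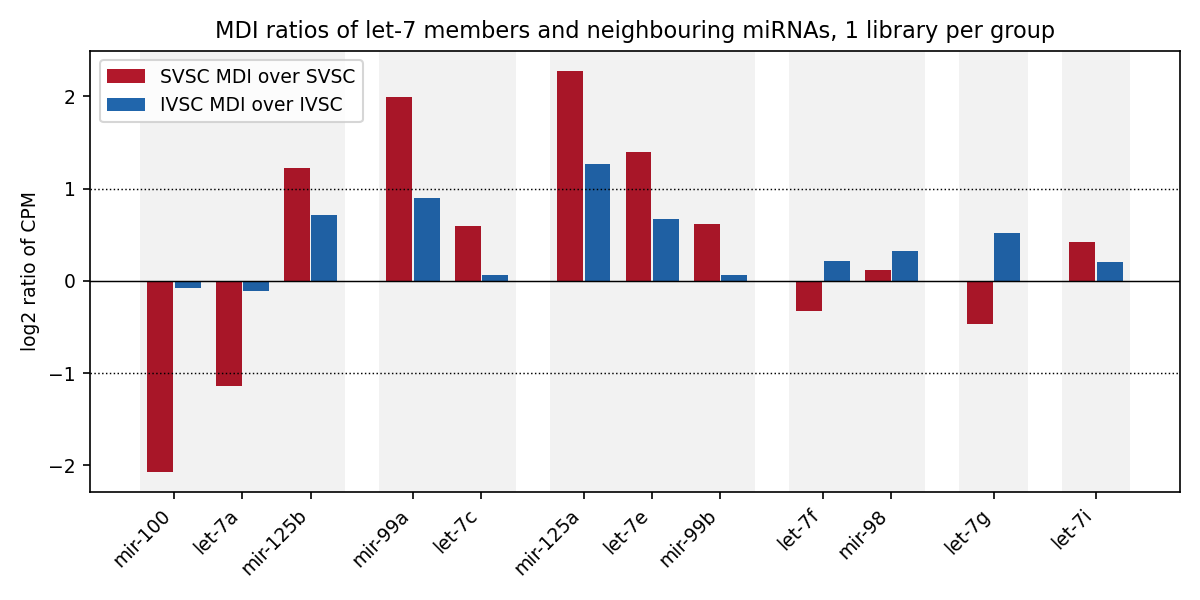
Log2 ratio of CPM with MDI for each let-7 member and the neighbouring miRNAs of the miR-99 and miR-125 families, shaded by gene neighbourhood in Sscrofa11.1, with SVSC MDI over SVSC left of IVSC MDI over IVSC. let-7a and miR-100 are negative in both cultures (positive in IVSC when scaled to all reads), and miR-125a, let-7e and miR-99b, like miR-99a and let-7c, are positive in both.

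The members also differ in where their reads lay on the hairpin. For all but let-7i, between 0.53% and 3.95% of reads lay outside the mature sequence. For let-7i it was 72.7% in SVSC MDI, 62.3% in SVSC, 64.3% in IVSC MDI and 66.1% in IVSC. Of its mature reads, 2.61%, 1.84%, 1.32% and 1.66% matched the annotated ends exactly, which is 35, 177, 131 and 121 reads. Other members had exact shares between 57.8% and 90.8%. let-7i alone gave 67.2% of all family reads off the mature sequence in SVSC MDI, 46.4% in SVSC, 74.2% in IVSC MDI and 69.9% in IVSC.

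The low exact share of let-7i was not compared with the exact shares of other miRNAs. Its share off the mature sequence was reached by a minority of miRNAs. Of those with at least 1000 reads, the median share off the mature sequence was 4.09% in SVSC MDI, 4.75% in SVSC, 4.71% in IVSC MDI and 4.49% in IVSC, but 10 of 63, 22 of 102, 17 of 104 and 23 of 105 were at or above the share of let-7i, that miRNA included. The files give no positions of reads along the hairpin, so whether these are let-7i reads with other ends was not tested. On mature reads alone let-7i made 0.725% of the family in SVSC MDI, 0.516% in SVSC, 1.11% in IVSC MDI and 1.03% in IVSC, below its share of all hairpin reads. No star reads were recorded for any member. Such a count of 0 allows a level of up to 1.17 CPM in SVSC MDI, 0.167 in SVSC, 0.203 in IVSC MDI and 0.226 in IVSC, if the entries define a star sequence at all, which the files do not say.

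**Figure D5:**
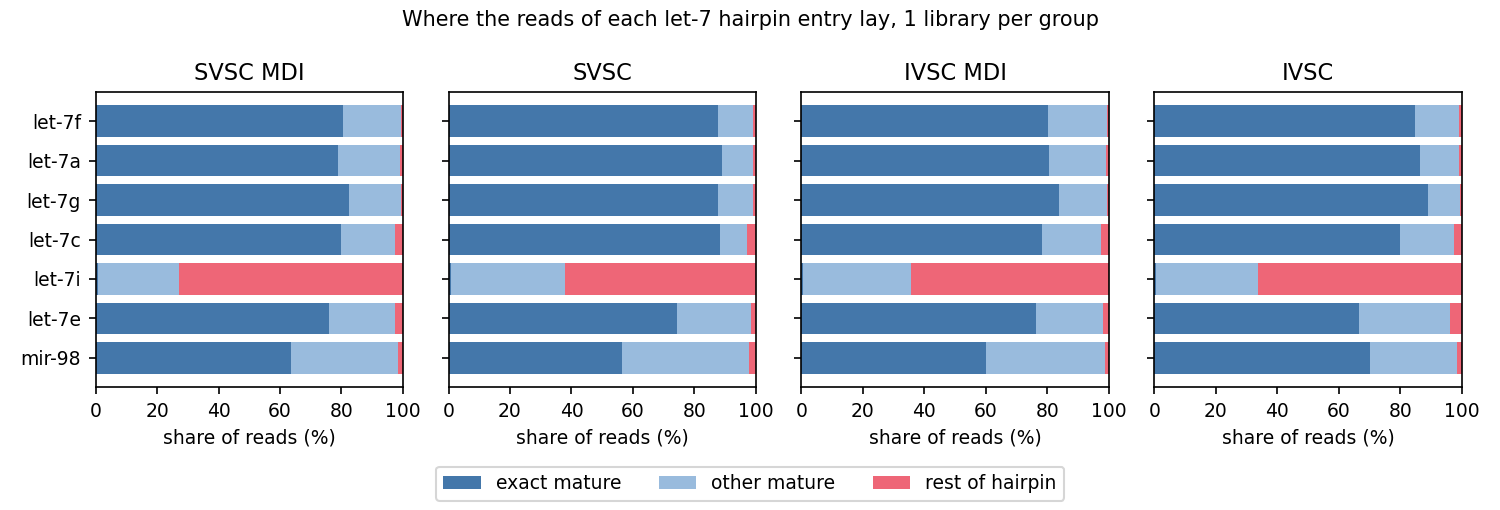
Share of each member's reads (percent) that match the mature sequence exactly, lie on it with other ends or bases, or lie on the rest of the hairpin, 1 panel per library. let-7i has 62.3 to 72.7% of its reads there, and the other members have at most 3.95%.

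The share of mature reads with exact ends differed between libraries for the abundant members. For let-7a it was 79.8% in SVSC MDI, 89.7% in SVSC, 81.3% in IVSC MDI and 87.0% in IVSC. For let-7f it was 80.8%, 88.4%, 80.7% and 85.3% in the same order, and for let-7g 83.0%, 88.4%, 84.2% and 89.5%. Each of these members was thus lower in both induced libraries than in both undifferentiated ones. let-7e ran the other way, with 77.8% in SVSC MDI, 75.4% in SVSC, 77.7% in IVSC MDI and 69.5% in IVSC. let-7c had 81.9%, 90.8%, 80.3% and 82.0%, and miR-98 64.6%, 57.8%, 60.7% and 71.3%.

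Over the family as a whole the exact share was 79.9% in SVSC MDI, 88.3% in SVSC, 80.1% in IVSC MDI and 84.8% in IVSC. With MDI it was lower for 4 of 7 members in the subcutaneous culture, where the median difference over 53 miRNAs was −1.02 percentage points and 54.7% were lower. In the muscle culture it was lower for 6 of 7 members, beside a median of −0.97 points over 82 miRNAs, of which 59.8% were lower. The differences of let-7a were −9.98 points in SVSC MDI against SVSC and −5.78 points in IVSC MDI against IVSC.

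The files also list let-7 under Rfam, a collection of RNA families, with 83 entries in SVSC MDI, 86 in SVSC, 86 in IVSC MDI and 80 in IVSC. Reads matching only 1 of these entries summed to 2374, 26482, 9713 and 7853, or 1.25%, 1.39%, 1.06% and 1.07% of the reads on the pig hairpins. They are not part of the levels above. Most sat on 1 entry, with 773 CPM in SVSC MDI, 1334 in SVSC, 562 in IVSC MDI and 504 in IVSC. Its ratio was 0.580 (0.554 to 0.607) for SVSC MDI over SVSC and 2.65 (2.58 to 2.72) for SVSC over IVSC, so SVSC was the highest library here as well. For IVSC MDI over IVSC it was 1.11 (1.08 to 1.15), and for SVSC MDI over IVSC MDI 1.38 (1.31 to 1.45). Which let-7 member this entry stands for is not given in the files. No other resource of the files carried a let-7 name.

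Among 75 miRNAs outside the family with at least 100 CPM in every library, the ones whose levels ran closest to the family sum over the 4 libraries were miR-21, miR-450b and miR-151. Likeness was measured as the root mean square difference of log2 CPM, each centred on its own mean, and was 0.26, 0.30 and 0.32. Within the family, let-7f and miR-98, which lie side by side in Sscrofa11.1, were each other's nearest member at 0.17. let-7g was nearest to let-7f (0.18) and let-7i to miR-98 (0.22). let-7c and let-7e were each other's nearest at 0.35, both highest in SVSC MDI and lowest in IVSC. let-7a was farthest from any member, 0.43 from let-7f. These values describe 4 libraries.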

How the data were processed

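Small RNA was sequenced from 4 libraries, made from fragments of 16 to 35 nt of about 10 µg of total RNA with 12 PCR cycles, and read for 36 cycles, per the labels' protocols. The deposited values are raw read counts per feature, per the file headers, from 4 resources: pig hairpins, Rfam, piRNAs and the Ensembl set of non-coding RNAs for Sscrofa9.61. Each feature has counts on the mature sequence (exact, all and uniquely matching), the star sequence, the rest of the hairpin and in total. The submitters' processing notes name mm9 without a role; the aligner, its mismatches and the trimming are not given in any source used here. In the SVSC file, some Rfam tRNA cells of the deposited column of unique mature counts, whose unit is listed as other, hold damaged values and were not used. Features without a resource name (3 in SVSC, 1 in SVSC MDI) were left out. 

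The measure was the total reads on a hairpin, with copies of a hairpin counted once (the largest copy plus unique mature reads of the others), scaled to the miRNA reads of the library. A miRNA entered a comparison if either library had at least 10 CPM of it, and was given a ratio with an exact Clopper-Pearson 95% interval, conditional on its summed reads (SciPy 1.17.1, pandas 2.3.3, NumPy 2.4.6, Python 3.11.15). Zero counts were replaced by a floor of 3 reads. Intervals of within-family ratios and of differences between ratios are normal intervals of the log ratio. The additive fit of culture and MDI state used edgeR 4.0.16 (R 4.3.3, limma 3.58.1) with filterByExpr, TMM and Benjamini-Hochberg adjustment over 179 miRNAs; its prior degrees of freedom were infinite, and SE is the log2 effect over the root of F. DESeq2 1.42.0 was the other tool. The p-values of the fit rest on what the additive model leaves unexplained in these 4 libraries, pooled over miRNAs, and not on spread between animals. A response to MDI that differs between the cultures is part of that remainder. Both steps were tested on simulated data. For the intervals these data held counting error only. For the fit they had less spread than the dispersion of 0.196 estimated here, and larger effects than any member showed. They therefore do not give the power of the fit for the members. Named are all members, the 5 miRNAs of the miR-99 and miR-125 families, the 3 miRNAs most like the family sum and each member's nearest member. Members and lists were chosen with earlier results of these data known. Gene neighbours come from a RefSeq table of Sscrofa11.1, used for names and neighbourhood only, since the files use another build.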

Additional observations from a re-analysis of the deposited data

Results flagged for a closer look

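let-7f and let-7g had ratios with MDI of opposite sign in the cultures, each with a counting interval that excludes 1. For let-7f the log2 ratio was −0.33 in SVSC MDI over SVSC and 0.21 in IVSC MDI over IVSC, a difference of −0.54. For let-7g it was −0.46 in SVSC MDI over SVSC and 0.52 in IVSC MDI over IVSC, a difference of −0.99. Neither difference was tested, since each group has 1 library. Both signs held under all 6 scalings, but the sign of let-7f in SVSC turned positive (0.10) on unique mature reads scaled to their own total. The SVSC MDI library is the shallowest, and its part in these values was not tested.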

How the results depend on the processing

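No paired analysis was possible because the labels give no replicate numbers and each group has 1 library; leaving out 1 of 4 libraries leaves the additive fit no residual degrees of freedom, so it was not run. Depth limits mainly SVSC MDI, where 3 reads are 1.17 CPM. Settings below changed 1 choice each, except that the mature, exact and unique mature reads scaled to their own totals changed the reads and the scaling together; values are log2 ratios, or counts of members past 2-fold where so named, and where a sign turned the cause was not tested unless the setting itself, a constant added to every ratio, shows it. The family sum of IVSC MDI over IVSC stayed positive and short of 2-fold in all settings, and edgeR and DESeq2 called 0 members in every version of the fit. Without a filter on low counts in these comparisons, and with the largest copy alone, no sign, call or count of the members' ratios changed.

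With TMM, SVSC MDI over SVSC gave −1.02 for the family sum, −0.077 for let-7i, −0.39 for miR-98 and 1 member past 2-fold; SVSC over IVSC gave 1.28 for the family sum, 0.15 for let-7i and 2 members; SVSC MDI over IVSC MDI gave −0.0071 for let-7f and −0.089 for let-7i. With DESeq2 size factors, SVSC MDI over SVSC gave −0.31 for miR-98 and 1 member, SVSC over IVSC gave 1.30 for the family sum, 0.17 for let-7i and 4 members, and SVSC MDI over IVSC MDI gave −0.011 for let-7i.

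Scaled to all reads, IVSC MDI over IVSC gave 0.11 for let-7a and 0.14 for miR-100, SVSC MDI over SVSC gave −1.002 for the family sum, −0.057 for let-7i, −0.37 for miR-98 and 1 member, and SVSC over IVSC gave 1.12 for the family sum. In SVSC MDI over IVSC MDI it gave −0.26 for the family sum, −0.046 for let-7a, −0.41 for let-7f, −0.49 for let-7i, −0.34 for miR-98, −0.11 for miR-99a and 0 members past 2-fold. With miR-21 left out of the total, IVSC MDI over IVSC gave 0.0063 for miR-100, SVSC MDI over SVSC gave −0.28 for miR-98 and 1 member, SVSC over IVSC gave 1.27 for the family sum, 0.14 for let-7i and 2 members, and SVSC MDI over IVSC MDI gave −0.038 for let-7f and −0.12 for let-7i. With the let-7 family left out, SVSC over IVSC gave 1.02 for the family sum. Summing copies gave 0.0067 for miR-100 in IVSC MDI over IVSC, 1.02 for the family sum in SVSC over IVSC and −0.0041 for let-7i in SVSC MDI over IVSC MDI.

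On mature reads scaled to mature reads, SVSC MDI over SVSC had 1 member past 2-fold (let-7a was at −0.83), SVSC over IVSC gave −0.28 for miR-125b and SVSC MDI over IVSC MDI gave −0.33 for let-7i. Scaled to miRNA reads instead, these were −0.042 for let-7i, −0.063 for miR-125b and −0.36 for let-7i in the same comparisons. On exact mature reads, IVSC MDI over IVSC gave −0.050 for miR-99b, SVSC MDI over SVSC gave −1.07 for the family sum and −0.11 for miR-98, and SVSC over IVSC gave 1.19 for the family sum, 0.29 for let-7i and 2 members. SVSC MDI over IVSC MDI then gave −0.049 for the family sum, −0.19 for let-7f, −0.036 for miR-98 and 1 member. On unique mature reads, IVSC MDI over IVSC gave −0.044 for let-7c and −0.040 for miR-99b, SVSC MDI over SVSC gave 0.10 for let-7f and 1.02 for let-7c, newly past 2-fold while let-7a fell short of it, SVSC over IVSC gave −0.037 for miR-98 and −1.15 for miR-125b, and SVSC MDI over IVSC MDI gave −0.25 for let-7i. At 1.5-fold, 1 member (let-7e, higher) was past the threshold in IVSC MDI over IVSC, beside 40 of 152 miRNAs higher and 48 lower. In SVSC MDI over SVSC it was 3 members (let-7a lower, let-7c and let-7e higher), beside 66 of 146 miRNAs higher and 42 lower. In SVSC over IVSC it was 5 members, all higher, where 40.5% of all miRNAs had any ratio above 1.

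In the edgeR fit, the MDI effect was 0.032 for let-7g with library size alone, −0.050 for miR-98 without a filter and −0.078 for let-7i on mature reads, and the origin effect of let-7i was −0.083 with library size alone and −0.011 on mature reads. None of these passed the threshold. Over all miRNAs, edgeR called 11 higher and 8 lower for MDI and 1 higher and 4 lower for origin; DESeq2 called 16 and 19, and 2 and 8, and edgeR on mature reads called 18 and 13 for MDI. Of the other values, chiefly of single miRNAs, 638 kept their direction and their side of the threshold, 45 turned their sign, 16 fell short of it, 14 newly passed it, and 63, nearly all of them shares of the family, moved by more than counting error.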
